A study of Mus musculus with 32 samples.

Results

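The HSP70 and HSP90 chaperone system was followed through 10 genes: Hspa8, Hsph1, Hspa4 and Hspa4l of the HSP70 and HSP110 families, the J-domain proteins Dnaja1 and Dnajb1, the adaptor Stip1, the HSP90 genes Hsp90aa1 and Hsp90ab1, and Chordc1. The members were all probes of the array that carry one of these symbols, which gave 14 probes, and 1 probe listed under Hsp105, an older name of Hsph1, whose transcript accession is that of Hsph1. These 15 probes stand among 25697 on the array. Of the 15, 9 probes of 7 genes were detected on enough arrays to be tested, among 10187 tested probes in all.

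Gene expression was measured in the frontal cortex (FCtx) of 32 female mice, 1 Illumina MouseRef-8 v2.0 BeadChip array per mouse. The strain label is C57BL/6J x FVB/NJ F1, a hybrid of a pair of inbred strains that drinks large amounts of ethanol, and the methods name both directions of the cross. The ethanol group held 20 mice, which could choose between water and 20% ethanol during a daily session in the dark for 20 days, and the control group held 12 mice labelled as controls. Both groups share sex, hybrid background and tissue, an age at sampling was not given in the sources used here, and because drinking was voluntary the dose was set by each mouse. The arrays lay on 4 chips of 8. Chips 1 and 2 held ethanol-treated mice, chip 4 held controls, and chip 3 alternated the groups, with 4 ethanol-treated mice in its odd slots and 4 controls in its even slots. Chip and treatment therefore cannot be told apart outside chip 3, and position and treatment cannot be told apart on it. The data were deposited as mean bead signals. They are given here as normalized log2 signals, and a difference is on the log2 scale. Each array is a separate animal, and p-values are set against the spread between arrays. In fits without chip, differences between chips of the same group are part of that spread. Outside chip 3 such p-values take the mouse and not the chip as the unit. In bulk tissue, fewer cells of a type and less RNA per cell cannot be told apart.

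The arrays detected between 10637 and 11544 probes each, except that of control mouse C66 with 9480, which also had the lowest median signal, 146.2. Of 7 neuron markers 5 passed the detection filter (Snap25 and Gad2 did not), and their mean log2 signal lay between 12.50 and 12.69 in ethanol and between 12.43 and 12.64 in control arrays. On chip 3 alone it was higher in ethanol, at 12.59 to 12.67 against 12.47 to 12.58 in control.

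Chaperones of this system hold other proteins in a folded or foldable state. HSP70 proteins such as Hspa8 bind short exposed stretches of a client and release them in a cycle driven by ATP. J-domain proteins bring clients to HSP70 and start the cycle, and HSP110 proteins (Hsph1, Hspa4 and Hspa4l) act as nucleotide exchange factors that end it. Stip1 holds HSP70 and HSP90 at the same time and passes clients between them, and HSP90 completes the maturation of kinases and steroid receptors together with co-chaperones, of which Chordc1 is one. Several of these genes are induced by heat shock factor 1 when unfolded proteins build up, while Hspa8 and Hsp90ab1 are the constitutive, abundant forms in neurons.

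Over all 32 arrays, 3 of the 9 member probes were higher in ethanol-treated mice at an adjusted p below 0.01: the probe of Hspa8 and 2 of the 3 probes of Hsp90ab1. None was lower at that threshold. Across all probes tested, 8.22% were called in either direction and 3.67% were called higher. The median difference of the 9 member probes was 0.07, beside -0.0038 over all probes. On chip 3, the only chip with both groups, a different member was called: Chordc1 was higher in ethanol, and neither Hspa8 nor any Hsp90ab1 probe was. The genes follow in the order of their roles.

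**Figure D1:**
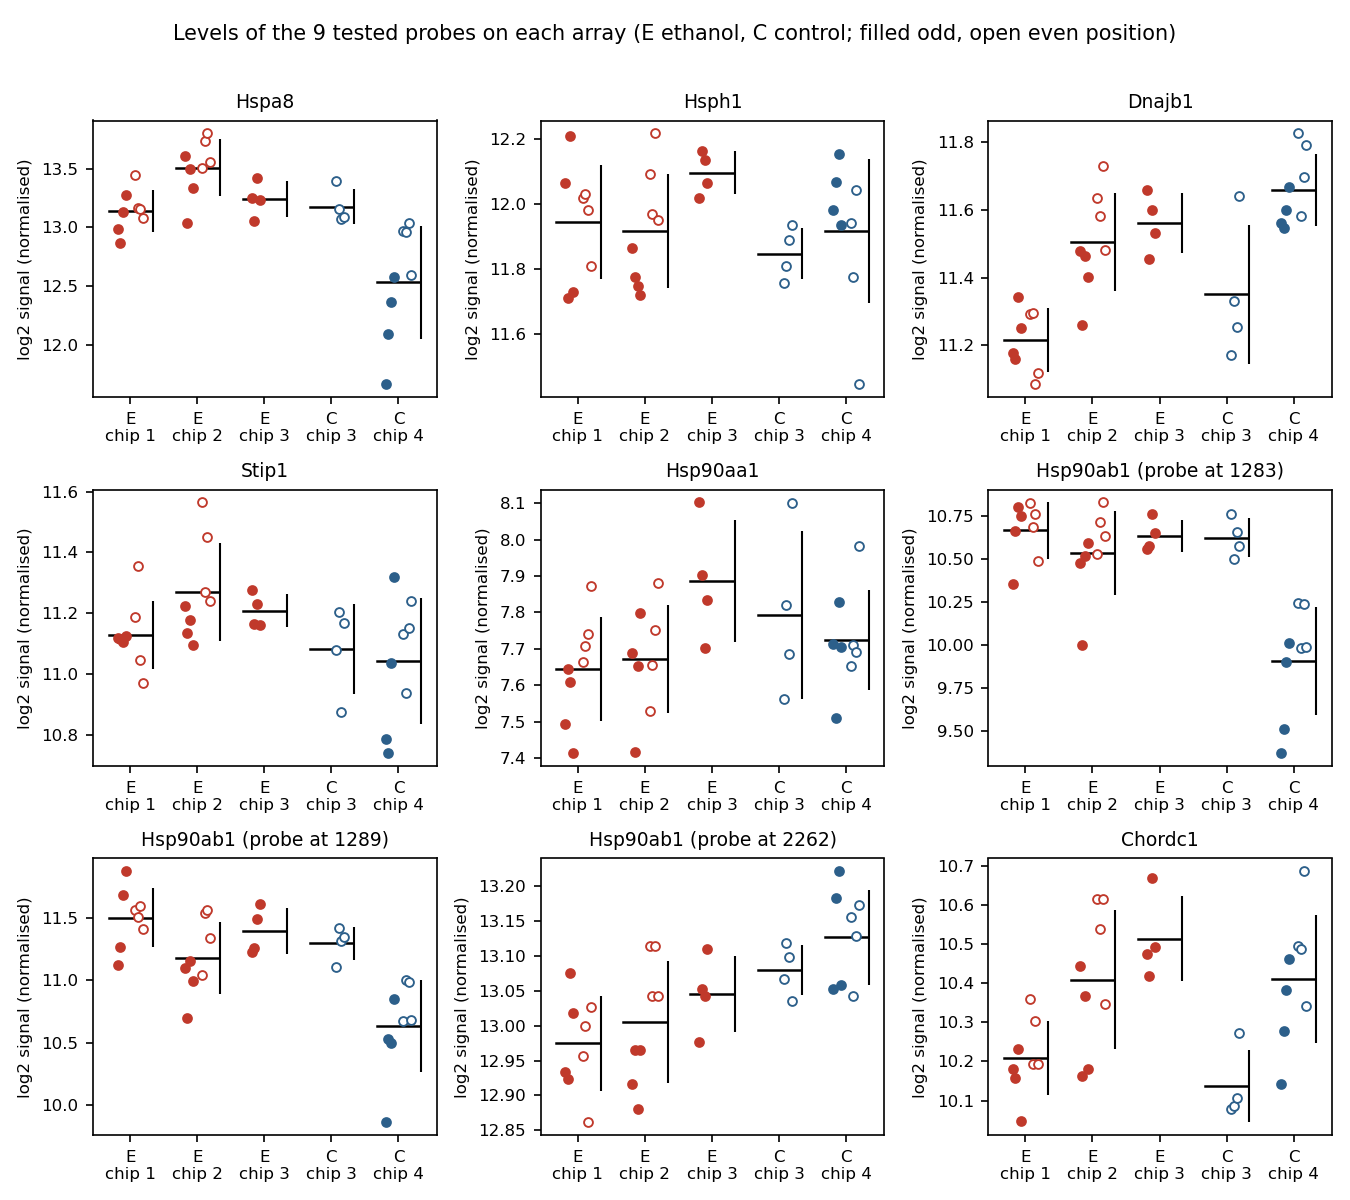
Normalized log2 signal of the 9 tested member probes on each of the 32 arrays, in the order ethanol chips 1, 2 and 3 and control chips 3 and 4. Filled points are odd and open points even positions, horizontal lines are means and vertical lines are 1 SD. The control arrays of chip 4 sit lowest for Hspa8 and for the Hsp90ab1 probes at 1283 and 1289, and the chip 3 groups of Hsph1 and Chordc1 do not overlap.

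Hspa8 encodes HSC70, the constitutive cytosolic HSP70, which among other tasks uncoats clathrin-coated vesicles at the synapse. Its 1 probe lies at position 25 of the transcript, near the 5′ end, and begins as follows, shown because its level was compared with a measure of signal along transcripts.
Hspa8 probe at 25, first 30 bases: tgcctggcatttgtgtggtctcgtcgtcag
In the 20 ethanol arrays its log2 signal had a lowest value of 12.87, a median of 13.26 and a highest value of 13.80. In the 12 control arrays these were 11.66, 12.97 and 13.40. The groups overlapped, although 19 of the 20 ethanol arrays lay above the control median. The difference was 0.56 ± 0.12 (SE), a fold of 1.47, with an adjusted p of 0.00129 by limma.

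The mean level of Hspa8 differed between chips, and outside chip 3 chip and treatment cannot be told apart. Ethanol-treated mice averaged 13.14 ± 0.18 (SD, n = 8) on chip 1, 13.51 ± 0.24 (n = 8) on chip 2 and 13.24 ± 0.15 (n = 4) on chip 3. Controls averaged 13.18 ± 0.15 (n = 4) on chip 3 and 12.53 ± 0.48 (n = 8) on chip 4. The chip 3 controls were thus within the range of the ethanol arrays, and the low values were those of chip 4. On chip 3 the 4 ethanol arrays read 13.25, 13.06, 13.42 and 13.24, and the 4 control arrays 13.40, 13.16, 13.07 and 13.09. The groups overlapped, and the difference was 0.07 (95% interval -0.12 to 0.25, adjusted p 0.687 by limma). Over the other chips, ethanol of chips 1 and 2 against control of chip 4, the difference was 0.79 ± 0.13 (SE), a fold of 1.73, with an adjusted p of 9.16e-05 by limma, and 14 of the 16 ethanol arrays lay above the highest array of chip 4. Chip 3 controls were 0.29 ± 0.10 above chip 4 controls at even positions, with an adjusted p of 0.108. With chip as a fixed block, which leaves chip 3 to carry the comparison, the all-array difference was 0.07 with an adjusted p of 0.886, and with chip as a random block it was 0.45 with an adjusted p of 0.0475.

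Hspa8 also differed by position on the chip. At the odd positions of chips 1, 2 and 4 it was 0.38 ± 0.09 (SE) lower than at the even ones of the same chips, where treatment does not vary, with an adjusted p of 0.00902 by limma. Its 4 odd arrays of chip 4 read 11.66, 12.09, 12.37 and 12.58, and its 4 even arrays 12.97, 12.96, 13.04 and 12.60. The lowest of the even arrays, at 12.60, was that of control mouse C66 and lay close to the highest odd array, at 12.58. Of the 9 member probes, 1 was called lower at odd positions, against 1.54% of all probes. All 9 had a negative difference there, with a median of -0.13 against -0.0024 over all probes. The call of Hspa8 was lost in all 5 alternatives run. The difference was -0.72 in chip 4 alone (adjusted p 0.0646) and -0.21 in chips 1 and 2 alone (adjusted p 0.133). It was -0.31 under median scaling of the arrays (adjusted p 0.235), -0.39 without the control mouse C66 (adjusted p 0.0106) and -0.09 with a measure of 3′ against 5′ signal as a covariate (adjusted p 0.469). Among all tested probes, 313 were called in the main fit and 0, 15, 0, 258 and 52 in these 5, in the order given.

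A measure of how evenly transcripts were represented from end to end moved with Hspa8. For 561 transcripts outside the members with tested probes at least 500 bases apart, the 3′ signal minus the 5′ signal was taken, centered on its mean over arrays, and its median was used as a value of the array. Higher values mean relatively less signal from the 5′ probes. Its median was -0.0203 on chip 1, -0.0606 on chip 2, -0.0028 in ethanol and -0.0344 in control on chip 3, and 0.0655 on chip 4, where it reached 0.225. The array at that top value, that of control mouse C57, had the lowest Hspa8 signal of all 32. With the means of treatment, chip and odd or even position removed, Hspa8 had a Pearson r of -0.818 and a Spearman rho of -0.802 with this measure over 32 arrays, each with a permutation p of 1e-05, the smallest that 100000 resamples can give, and an adjusted p of 4.5e-05 over the 9 probes. Without the 2 arrays farthest from the median of the measure after that removal, A29 and C62, r was -0.769. Without chip 4 it was -0.808. When the measure entered the all-array comparison as a covariate, an alternative added after seeing the data, the difference of Hspa8 was 0.14 with an adjusted p of 0.102.

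**Figure D2:**
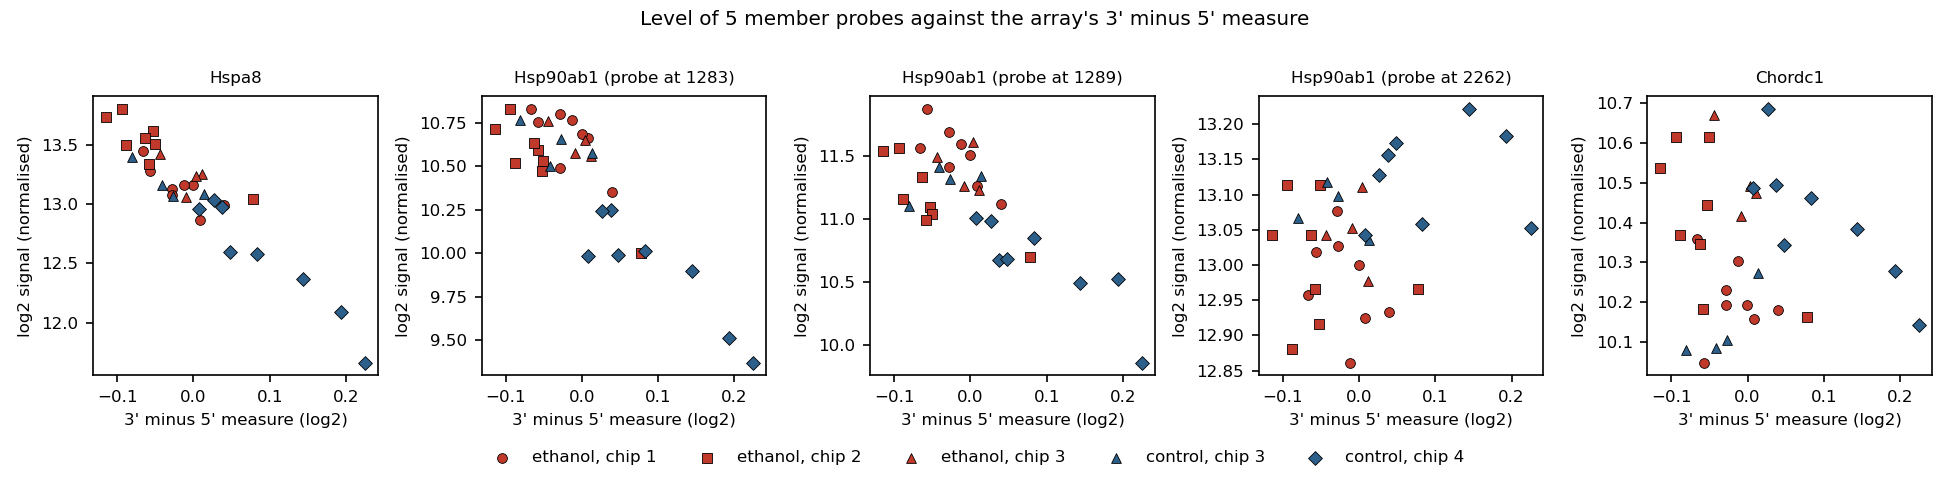
Normalized log2 signal of 5 member probes (vertical axes) against the array's 3′ minus 5′ measure in log2 units (horizontal axes), 1 point per mouse, colored by treatment and shaped by chip. Hspa8 and the Hsp90ab1 probes at 1283 and 1289 fall as the measure rises. After removal of treatment, chip and position means their r is -0.818, -0.802 and -0.685. The Hsp90ab1 probe at 2262 has an r of 0.0248, and Chordc1 has an r of -0.381 (adjusted permutation p 0.119).

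Hsph1, the HSP110 protein that acts as exchange factor for HSC70, was not called over all arrays, with a difference of 0.07 ± 0.06 (SE) and an adjusted p of 0.452 by limma. On chip 3 its 4 ethanol arrays read 12.02, 12.16, 12.14 and 12.07, and its 4 controls 11.76, 11.81, 11.89 and 11.93. Every ethanol array was above every control array. The difference was 0.25 ± 0.07, a fold of 1.19, and its adjusted p of 0.033 by limma did not pass the threshold of 0.01. Its between-chip difference was 0.01 (95% interval -0.14 to 0.17), and between odd and even positions by -0.03 ± 0.07. Against the 3′ minus 5′ measure, treated as for Hspa8, it had an r of 0.0751 and a rho of 0.1, with adjusted permutation p-values of 0.889 and 0.705. The probe lies at position 3305 of its transcript.

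The other HSP110 genes could not be compared. Neither of the 2 probes of Hspa4 passed the filter, with detection on 0 and 7 of the 32 arrays. The 1 probe of Hspa4l was detected on 23 arrays, 16 ethanol and 7 control, which is 1 array below the filter of 24. Fitted with every probe of the array, these 3 probes had differences between -0.04 and 0.07, with adjusted p-values of 0.519, 0.993 and 0.522. A signal this close to the negative control beads gives no level for the genes themselves.

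Dnajb1, the major stress-inducible J-domain partner of cytosolic HSP70, had differences of opposite sign in the 2 comparisons that share no arrays. Its 20 ethanol arrays ran from 11.08 through a median of 11.43 to 11.73 and its 12 controls from 11.17 through 11.59 to 11.83, with a difference of -0.16 ± 0.07 (SE) and an adjusted p of 0.0981 by limma. In ethanol of chips 1 and 2 it was lower than in control of chip 4 by 0.30 ± 0.07, with an adjusted p of 0.00215, and with odd or even positions alone the difference was -0.28 and -0.32, with adjusted p-values of 0.0212 and 0.0575. On chip 3 its ethanol arrays read 11.66, 11.45, 11.60 and 11.53 and its controls 11.17, 11.33, 11.25 and 11.64, where the control C56 lay among the ethanol arrays. The chip 3 difference was 0.21 ± 0.09, with an adjusted p of 0.146. The 2 differences differed from each other by 0.51 ± 0.11, with an adjusted p of 0.0024 by limma. Chip 1 and chip 2, both ethanol, had means of 11.22 ± 0.09 (SD, n = 8) and 11.50 ± 0.14 (n = 8), so Dnajb1 varied between chips of 1 treatment by as much as between the groups. With each array scaled to its median in place of quantile normalization, the difference between chips 1 and 2 and chip 4 was -0.17 with an adjusted p of 0.285. Over the 9 alternatives run, this difference lay between -0.51 and -0.17, with adjusted p-values from 0.000202 to 0.285 by limma.

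Of Dnaja1, a constitutive J-domain protein, 2 probes were on the array, detected on 0 and 8 arrays, and neither was tested. Their differences in a fit of every probe were -0.05 and -0.01, with adjusted p-values of 0.543 and 0.938.

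Stip1, the adaptor between HSP70 and HSP90, had the same sign in the all-array, chip 3 and between-chip comparisons and passed the threshold in none. Its ethanol arrays had a lowest value of 10.97, a median of 11.17 and a highest value of 11.57, and its controls 10.74, 11.11 and 11.32. The difference was 0.15 ± 0.06 (SE) over all arrays, with an adjusted p of 0.0605, 0.13 ± 0.08 on chip 3 (adjusted p 0.319) and 0.16 ± 0.07 between chips 1 and 2 and chip 4 (adjusted p 0.103), all by limma.

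Hsp90aa1 encodes the inducible cytosolic HSP90. One of its 2 probes, at position 17 of the transcript, was detected on 0 of 32 arrays, and the other, at position 2479, was detected on all of them at signals between 183.8 and 339, not far above the negative controls. Its difference was -0.04 ± 0.06 (SE) over all arrays, 0.09 ± 0.10 on chip 3 and -0.07 ± 0.06 between chips 1 and 2 and chip 4, with adjusted p-values of 0.65, 0.616 and 0.448 by limma. The direction over all arrays turned to 0.01 under median scaling.

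Hsp90ab1 encodes the constitutive cytosolic HSP90 and is the only member with 3 tested probes. The probes at positions 1283 and 1289 of the transcript share 44 of their 50 bases, so they are close to a repeated reading of 1 stretch, while the probe at 2262 lies much further toward the 3′ end. They are shown with the shared bases in capitals, and the third by its first 30 bases.
Hsp90ab1 probe at 1283: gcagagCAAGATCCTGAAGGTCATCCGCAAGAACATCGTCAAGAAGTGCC
Hsp90ab1 probe at 1289: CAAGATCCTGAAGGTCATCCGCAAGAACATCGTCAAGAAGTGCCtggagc
Hsp90ab1 probe at 2262, first 30 bases: gtggattaaagcctcctggaagaagccctg
Both Hspa8 and Hsp90ab1 have close relatives and processed copies in the genome, and signal from such copies cannot be told apart by a single probe. No member probe sequence occurs more than once on the array.

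The overlapping pair was higher in ethanol and the 3′ probe was not. At position 1283 the ethanol arrays had a lowest value of 10.0036, a median of 10.64 and a highest value of 10.83, and the controls 9.37, 10.13 and 10.76. The difference was 0.46 ± 0.10 (SE), a fold of 1.38, with an adjusted p of 0.00148 by limma. At position 1289 the ethanol arrays ran from 10.70 through 11.38 to 11.88 and the controls from 9.86 through 10.92 to 11.42, with a difference of 0.50 ± 0.11, a fold of 1.41 and an adjusted p of 0.00259. For both, 19 of 20 ethanol arrays lay above the control median. At position 2262 the ethanol arrays ran from 12.86 through 13.01 to 13.11 and the controls from 13.04 through 13.11 to 13.22, and the difference was -0.11 ± 0.03 with an adjusted p of 0.0173, so its sign was the reverse. The 3 estimates spanned 0.609, and of 1748 symbols with several tested probes, 7 spanned at least as much, Hsp90ab1 included, beside a median of 0.0865.

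The overlapping pair, like Hspa8, was lowest on average in the controls of chip 4. From chip 1 to chip 2 its means fell, whereas that of Hspa8 rose from 13.14 to 13.51. The probe at 1283 averaged 10.67 ± 0.16 (SD, n = 8), 10.54 ± 0.24 (n = 8) and 10.64 ± 0.09 (n = 4) in ethanol on chips 1, 2 and 3, 10.62 ± 0.11 (n = 4) in control on chip 3, and 9.91 ± 0.32 (n = 8) in control on chip 4. The probe at 1289 averaged 11.51 ± 0.24, 11.18 ± 0.29, 11.40 ± 0.18, 11.30 ± 0.13 and 10.63 ± 0.37 in the same groups. On chip 3 the differences were 0.01 (95% interval -0.15 to 0.17) at 1283, 0.10 (-0.09 to 0.29) at 1289 and -0.03 (-0.17 to 0.11) at 2262. The between-chip differences were 0.70 ± 0.10 with an adjusted p of 8.5e-06, 0.71 ± 0.12 with an adjusted p of 0.000136 and -0.14 ± 0.04 with an adjusted p of 0.017. Controls of chip 3 were 0.51 ± 0.09 above controls of chip 4 at even positions for the probe at 1283, with an adjusted p of 0.00517 by limma, the 1 member probe called there against 0.883% of all probes. Leaving out any 1 of the control mice C52, C54, C55, C56 and C64 ended that call, with adjusted p-values of 0.011 to 0.0267 at differences of 0.46 to 0.55, and leaving out C66 added Chordc1 (-0.42, adjusted p 0.00673). The difference on chip 3 was smaller than that between chips by 0.68 ± 0.17 for the probe at 1283, with an adjusted p of 0.00892 by limma, and by 0.73 ± 0.22 for Hspa8, with an adjusted p of 0.0285.

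Against the 3′ minus 5′ measure, with treatment, chip and position means removed, the probe at 1283 had an r of -0.802 and a rho of -0.739, the probe at 1289 an r of -0.685 and a rho of -0.634, and the probe at 2262 an r of 0.0248 and a rho of 0.049 over 32 arrays. The permutation p-values of r adjusted over the 9 probes were 4.5e-05, 0.00021 and 0.894, those of rho were 4.5e-05, 0.00102 and 0.8, and r without the 2 farthest arrays was -0.706, -0.62 and -0.162. With the measure as a covariate the all-array differences were 0.15 at 1283 and 0.20 at 1289, with adjusted p-values of 0.146 and 0.176 by limma, and -0.11 at 2262 with an adjusted p of 0.0623. With chip as a fixed block the first 2 were 0.01 and 0.10, with adjusted p-values of 0.975 and 0.794, and with chip as a random block 0.37 and 0.41, with adjusted p-values of 0.0522 and 0.0559.

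Chordc1 encodes a zinc-binding HSP90 co-chaperone that is induced by heat shock. Over all arrays its groups had nearly the same level, with 10.05, 10.35 and 10.67 as lowest, median and highest value in ethanol and 10.08, 10.31 and 10.69 in control, and the difference was 0.03 ± 0.06 (SE) with an adjusted p of 0.777 by limma. On chip 3 its ethanol arrays read 10.47, 10.42, 10.67 and 10.49 and its controls 10.08, 10.09, 10.11 and 10.27. All 4 ethanol arrays were above all 4 controls. The difference was 0.38 ± 0.08, a fold of 1.30, with an adjusted p of 0.00525 by limma. It was the 1 member probe of 9 called on that chip, where 3.15% of all probes were called. Chordc1 and Hsph1 were the 2 of 9 member probes whose chip 3 groups did not overlap with ethanol higher, against 7.58% of all probes. Leaving out any 1 of 6 of the 8 arrays (ethanol A46, A47 and A49, control C52, C54 and C55) took the adjusted p of Chordc1 to between 0.0102 and 0.0226, at differences of 0.33 to 0.41.

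Chordc1 differed by chip as well, in the opposite sense. Its mean was 10.21 ± 0.09 (SD, n = 8), 10.41 ± 0.18 (n = 8) and 10.51 ± 0.11 (n = 4) in ethanol on chips 1, 2 and 3, 10.14 ± 0.09 (n = 4) in control on chip 3 and 10.41 ± 0.16 (n = 8) in control on chip 4. Its between-chip difference was -0.10 ± 0.07 with an adjusted p of 0.307, and the chip 3 difference exceeded it by 0.48 ± 0.11, with an adjusted p of 0.00649 by limma. Of the 9 member probes, 3 were called in this test of the difference between the 2 differences (Dnajb1, Chordc1 and Hsp90ab1 at 1283), against 3.17% of all probes. Controls of chip 3 were 0.37 ± 0.09 below controls of chip 4 at even positions, with an adjusted p of 0.0224. At odd positions of chips 1, 2 and 4 Chordc1 was 0.18 ± 0.05 lower than at even ones, with an adjusted p of 0.0185, whereas on chip 3 the odd arrays, all ethanol, were the higher ones. In the fit with chip and position together, the other chips supply the position difference. The fit takes it to be the same on chip 3, which could not be tested. With it, Chordc1 was higher in ethanol by 0.56 ± 0.10, a fold of 1.47, with an adjusted p of 0.00763 by limma. It was the 1 member called of 9, against 0.0196% of all probes, and the other 8 members had differences between 0.0046 and 0.45 with adjusted p-values of 0.249 to 0.993. Under median scaling the same fit gave 0.46 with an adjusted p of 0.919.

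**Figure D3:**
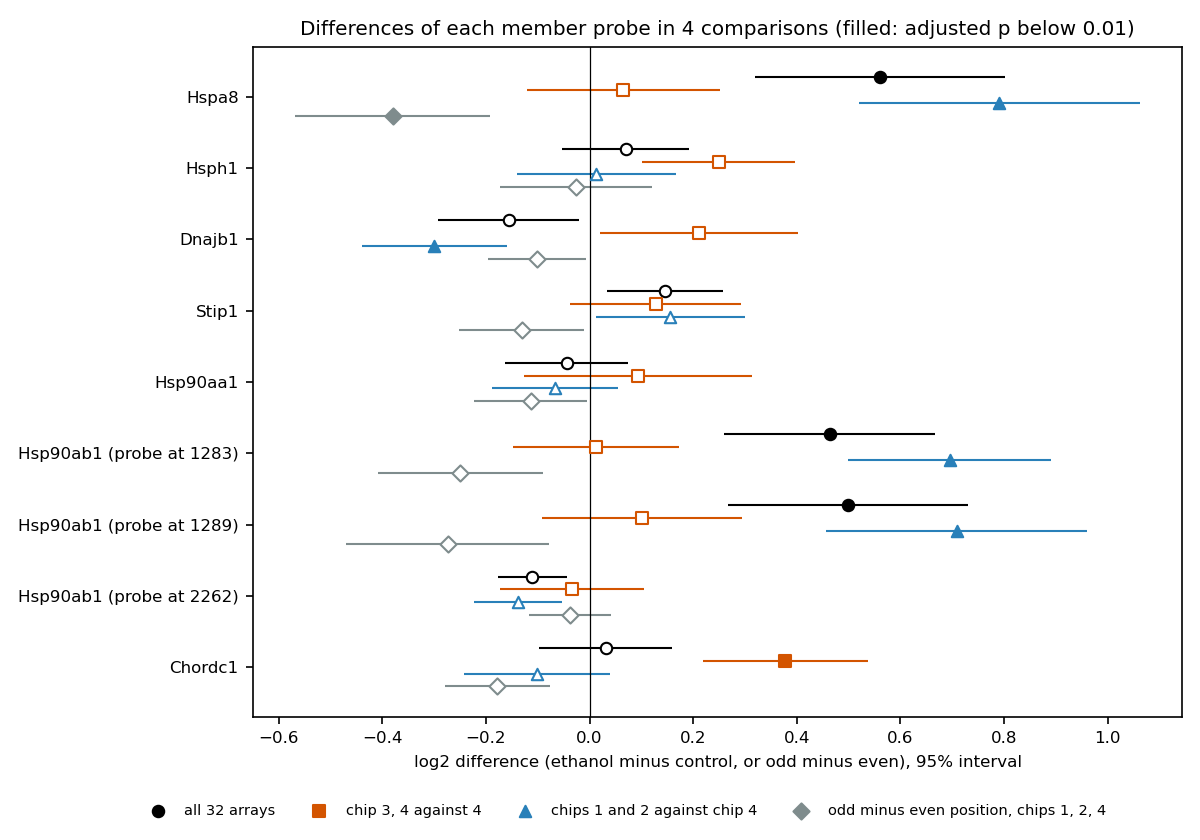
Log2 difference with its 95% interval (horizontal axis) of each tested member probe (rows) for ethanol minus control over all 32 arrays, on chip 3 and between chips 1 and 2 and chip 4, and for odd minus even positions of chips 1, 2 and 4. Filled symbols passed an adjusted p below 0.01. Hspa8 and the Hsp90ab1 probes at 1283 and 1289 lie far to the right between chips and near 0 on chip 3, while Chordc1 lies at 0.38 on chip 3 and at -0.10 between chips.

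Between chips 1 and 2 and chip 4, 3 of 9 member probes were called higher (Hspa8 and the Hsp90ab1 pair) against 5.92% of all probes, and 1 of 9, Dnajb1, was called lower against 5.78%. The groups overlapped for all 9 member probes, beside 0.334% of all probes without overlap and with ethanol higher. Median scaling moved the median of all probes by over 0.1 in 3 comparisons, to 0.105 between chips, to 0.158 between the controls of chips 3 and 4 and to -0.14 for the difference between differences. The share of called probes that were higher moved from 44.7% to 93.4% over all arrays, from 48% to 23.8% on chip 3, from 50.6% to 98.6% between chips and from 50.2% to 0% for the difference between differences. Odd against even positions, the controls of chips 3 and 4 and the fit with chip and position had no call left under it, after 313 (49.8% higher), 90 (67.8% higher) and 2.

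Promoter sequence was examined for the 7 members with a RefSeq window (GRCm38.p6) of 250 bases before to 50 bases after a transcript start: Chordc1, Hsph1, Dnajb1, Dnaja1, Stip1, Hspa4 and Hspa4l. Those of Hspa8, Hsp90aa1 and Hsp90ab1 were not analysed here. The motif searched was the heat shock element in its form of 3 alternating units, GAANNTTCNNGAA or, on the other strand, TTCNNGAANNTTC, allowing overlap between matches. It occurred in the windows of 2 members, Chordc1 and Hsph1, and in 0.603% of 32851 windows in all. Chordc1 held 3 overlapping matches from 4 bases before the start onward, and no other of the 32851 windows held as many. The stretch around the matches, 81 bases of the Chordc1 window and 30 of the Hsph1 window, is printed along the strand of the gene. Matches are in capitals. A match describes the letters and not a bound site, and a link between the motif and the levels was not tested.
Chordc1, chr9:18292207-18292287, plus strand: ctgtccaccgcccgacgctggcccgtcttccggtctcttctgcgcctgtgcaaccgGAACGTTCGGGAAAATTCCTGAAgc
Hsph1, chr5:149636279-149636308, minus strand: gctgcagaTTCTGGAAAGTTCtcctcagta

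Apart from group, chip and position, some members varied together from mouse to mouse. After the means of the 8 combinations of treatment, chip and odd or even position were removed, the brightest probes of the 7 genes gave 21 pairs, of which 16 had an r above 0, with a median of 0.195. At an adjusted permutation p below 0.05 over the 21 pairs stood 4 pairs, all of them positive. Values were permuted within chip and not within these combinations, so the permutation p-values can be somewhat too small. Dnajb1 and Stip1 had an r of 0.567 and a rho of 0.698, with adjusted p-values of 0.00651 and 0.00105 by permutation. Hspa8 and Chordc1 had 0.636 and 0.566, with adjusted p-values of 0.00651 and 0.0143. Hsph1 and Chordc1 had 0.559 and 0.552, with adjusted p-values of 0.00651 and 0.0143. Dnajb1 and Chordc1 had 0.468 and 0.453, with adjusted p-values of 0.0377 and 0.0667 by permutation. Chordc1, the co-chaperone, was thus a partner in 3 of the 4. Without the 2 arrays farthest on the first gene, r was 0.638, 0.54, 0.496 and 0.406. Within single chips the r of Hsph1 and Chordc1 lay between 0.479 and 0.674 and that of Dnajb1 and Stip1 between 0.538 and 0.712, whereas that of Hspa8 and Chordc1 was 0.159, 0.693, 0.281 and 0.9 on chips 1 to 4, and that of Dnajb1 and Chordc1 0.173, 0.866, 0.703 and 0.0529. Hspa8 and the Hsp90ab1 probe at 1283, among 15 further pairs with the remaining Hsp90ab1 probes, had an r of 0.795 and a rho of 0.755, each with an adjusted p of 0.00015 by permutation, and 0.721 without the 2 farthest arrays. All these values share the array and its RNA, the 3′ minus 5′ measure included.

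**Figure D4:**
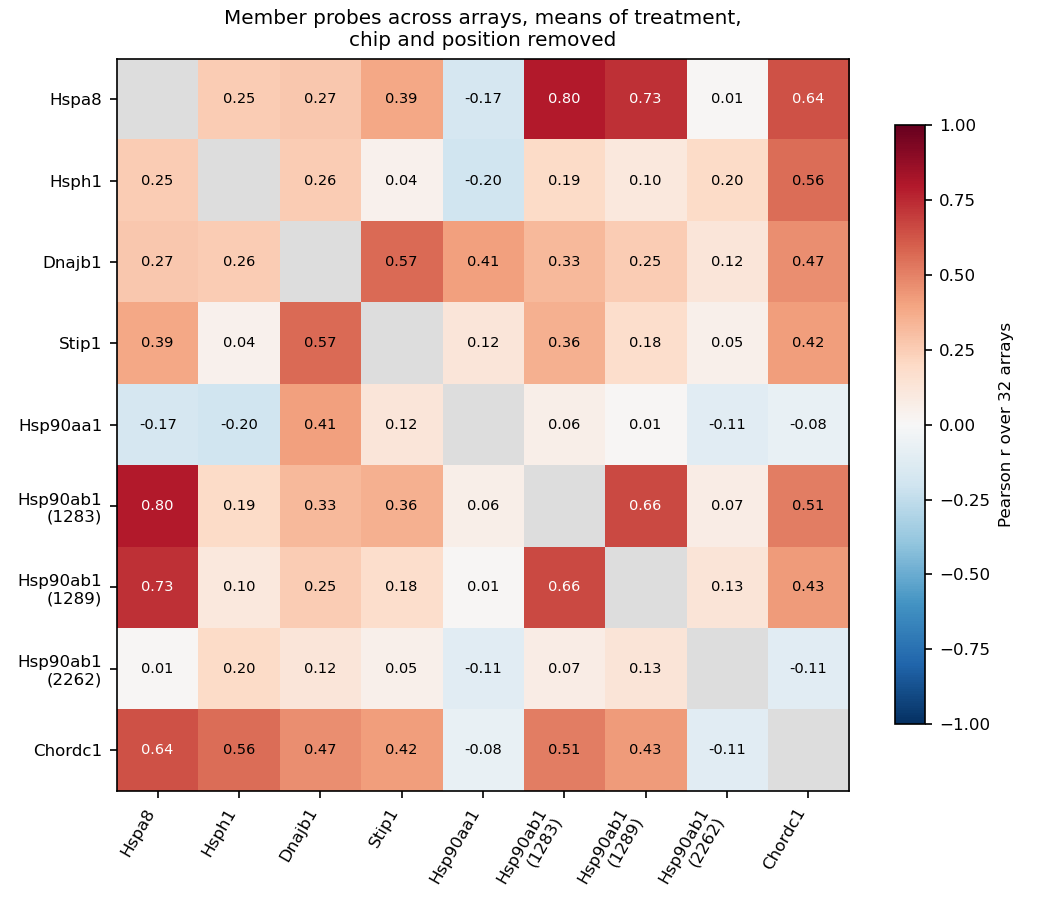
Pearson r over 32 arrays between the 9 tested member probes (rows and columns) after removal of the means of treatment, chip and odd or even position, from blue for -1 to red for 1. Hspa8 and the Hsp90ab1 probes at 1283 and 1289 form 1 block at 0.66 to 0.80, Chordc1 has an r of 0.64 with Hspa8 and 0.56 with Hsph1, and the Hsp90ab1 probe at 2262 and Hsp90aa1 have low values with most probes.

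Among 7852 genes outside the members, each by its brightest probe, those most like Chordc1 in the same residual levels began with Hspa1a, the stress-inducible HSP70, at an r of 0.715, followed by Rab8b (0.672), Psmd10 (0.665), Rit1 (0.659) and Cdc37l1 (0.65), the last a relative of the HSP90 kinase adaptor Cdc37. For Hspa8 they were Chp1 (0.857), Snrpd3 (0.839), Rtn4 (0.825), Hdhd2 (0.807) and Syt11 (0.797). For Hsph1 they were Atg12 (0.699), AI606181 (0.672), Tubgcp4 (0.658), LOC100044812 (0.656) and Ube3c (0.65). These are the highest of many correlations and are given as a description.

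Hspa1a itself had a low mean of 7.60 in ethanol and 7.78 in control, close to the 7.70 and 7.75 of the Hsp90aa1 probe. Hspa1a resembled Dnajb1 in its signs. Its difference was -0.18 ± 0.07 (SE) over all arrays with an adjusted p of 0.0636, 0.18 ± 0.09 on chip 3 with an adjusted p of 0.201, and -0.34 ± 0.07 between chips 1 and 2 and chip 4 with an adjusted p of 0.000748, by limma. Hsf1, the factor that induces heat shock genes, had differences of 0.0033, 0.12 and -0.05 in these comparisons, with adjusted p-values of 0.972, 0.323 and 0.574. The mitochondrial chaperonin Hspd1, by its brightest probe, had 0.02, 0.06 and 0.001, with adjusted p-values of 0.805, 0.611 and 0.994, while its second probe had 0.30, 0.04 and 0.44, with adjusted p-values of 0.0144, 0.846 and 0.00183. Hspe1, its partner, had -0.24, 0.02 and -0.35, with adjusted p-values of 0.0121, 0.916 and 0.00163. Cirbp, a cold-inducible RNA-binding protein, had 0.07, -0.26 and 0.17, with adjusted p-values of 0.514, 0.0485 and 0.0908, and was called in none. Hspa5 and Rbm3 did not pass the detection filter, and Hspa1b has no probe of that name among those on the array.

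The wider chaperone network was read through 93 further probes. Of these, 0 were higher and 2 lower over all arrays by limma, Unc45a (-0.15 ± 0.04, adjusted p 0.00696), a myosin co-chaperone of HSP90 whose brighter probe had 0.01 (adjusted p 0.906), and Dnajc15 (-0.30 ± 0.05, adjusted p 0.000144), a mitochondrial J-domain protein. Over all probes 3.67% were called higher and 4.55% lower, and the median over the 93 was 0.007. On chip 3, 0 were higher and 1 lower, Dnajc27 (-0.42 ± 0.07, adjusted p 0.00261), with a median of -0.0005, beside 1.51% and 1.64% of all probes. By group, the all-array counts were 0 of 8 probes for other HSP70 and HSP90 genes (median -0.05), 1 of 24 for HSP90 co-chaperones (-0.01), 0 of 8 for HSP70 co-chaperones (0.01), 1 of 33 for other J-domain proteins (0.02), 0 of 5 for small heat shock proteins (-0.14), 0 of 11 for chaperonins (0.04) and 0 of 4 for heat shock factors (-0.02). In the between-chip comparison, 5 of the 93 were higher and 9 lower, with a median of -0.01, beside 5.92% and 5.78% of all probes.

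Levels of other cell types and of activity genes also differed between the groups, and their part in the chaperone results was not tested. On chip 3 the oligodendrocyte markers had a median difference of -0.36 over 12 probes, 4 of them called lower (Cnp, Mobp and both Mog probes, -0.59 to -0.75). The mean level of the 6 oligodendrocyte genes ran from 10.40 to 10.66 in the ethanol arrays and from 10.53 to 11.33 in the controls of that chip. Of the olfactory bulb markers Cdhr1 was higher on chip 3 by 1.57 ± 0.22 with an adjusted p of 0.000897, and Eomes and Tbx21 did not pass the filter. The mean of the 2 tested olfactory bulb genes ran from 8.83 to 9.10 in ethanol and from 7.72 to 8.59 in control on chip 3. There the mean of the astrocyte genes ran from 10.74 to 10.89 in ethanol and from 10.54 to 10.65 in control. That of the endothelial genes ran from 8.95 to 9.12 and from 8.74 to 8.87. The neuron level was apart as well, whereas the microglia, blood and striatum levels overlapped. On the same chip the neuron markers Rbfox3 (0.38) and Gad1 (0.59) were higher and Slc17a7 (-0.46) lower, the astrocyte markers Aqp4 (0.61) and Slc1a3 (0.35) and the endothelial marker Cldn5 (0.47) higher, and 0 of 8 microglia, 0 of 3 blood and 0 of 4 striatum probes called. Over all arrays the neuron marker Slc17a7 was lower (-0.26), although 5 of the 6 neuron probes had a positive difference, with a median of 0.17. The oligodendrocyte marker Mbp was higher (0.62), although 4 of the 12 oligodendrocyte probes had a positive difference, with a median of -0.09. The astrocyte marker Aqp4 was higher too (0.57), with 4 of 6 probes positive and a median of 0.03, and no endothelial, microglia, blood, olfactory bulb or striatum probe was called. The choroid plexus markers Ttr, Kl and Folr1 did not pass the filter. Of the immediate early genes, which neuronal activity induces, Arc (-0.51), Fosb (-0.20) and Junb (-0.24) were lower over all arrays, 3 of 9 probes, and 0 of 9 were called on chip 3. Of the clock genes, both probes of Per1 were lower over all arrays (-0.31 and -0.28) and on chip 3 (-0.46 and -0.43), 2 of 16 probes each time.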

How the data were processed

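The intensities, as the authors deposited them, are mean bead signals per probe and array on a linear scale, not normalized. Deposited beside them were a detection p-value against negative control beads and the bead standard error and number. The background step was not given in the sources used here. The submitters' processing notes name lumi and limma.

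The log2 values were made here in R 4.3.3 from the bead errors by a variance-stabilizing transform of the kind lumi uses, followed by quantile normalization. A probe was tested if at least 24 of 32 arrays had a detection p-value under 0.01, which held for 10187 of 25697. limma 3.58.1 was fitted across these probes, p-values were adjusted over all of them by Benjamini-Hochberg, and calls were made at an adjusted p below 0.01. Ethanol (20 arrays) was compared with control (12 arrays) over all arrays, within chip 3 and between chips, and odd with even positions and controls with controls. Scripts were tested on simulated data. Correlations were computed in Python 3.11.15 with numpy 2.4.6, permuting within chip 100000 times. The means removed beforehand were also by treatment and position, so these permutation p-values can be somewhat too small. The number of arrays limits precision. Per the methods, RNA was extracted in batches that mixed the groups. Sequences other than those of probes are from RefSeq.

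Named were all member probes, list genes called over all arrays or on chip 3 (at most 15 by lowest p per comparison), Hspa1a, Hspa1b, Hspa5, Hsf1, Hspd1, Hspe1, Cirbp and Rbm3, and the 5 genes most like each of Hspa8, Hsph1 and Chordc1. A gene with several probes stands by its brightest unless all are given. The members and lists were chosen with earlier results of these data known. Alternatives covered the transform, scaling, background, filter, threshold, chip, position, array weights and left-out arrays.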

Additional observations from a re-analysis of the deposited data

Results flagged for a closer look

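In each of 5 combinations of treatment and chip, each of the 9 tested probes was examined for an array far from the others, 45 examinations in all, and chance flags about 1 in 20. There were 3. The Hsp90ab1 probe at 1283 was at 10.0036 in ethanol-treated mouse A29 on chip 2, with the next array at 10.48 and the highest at 10.83. A29 also had the highest 3′ minus 5′ measure of the ethanol arrays, 0.0778. The Hsp90ab1 probe at 1289 was at 9.8562 in control mouse C57 on chip 4, with the next at 10.49 and the highest at 11.01. C57 had the highest 3′ minus 5′ measure of all arrays, 0.225. Chordc1 was at 10.2732 in control mouse C56 on chip 3, with the other 3 controls of that chip between 10.08 and 10.11.

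The chip 3 difference and the between-chip difference differed for 3 of the 9 probes at an adjusted p below 0.01 by limma. For Dnajb1 the chip 3 difference was higher by 0.5114 (adjusted p 0.0024), for Chordc1 by 0.4793 (adjusted p 0.00649), and for the Hsp90ab1 probe at 1283 it stood at -0.6822 relative to the between-chip one (adjusted p 0.00892).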

How the results depend on the processing

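Of the 9 member probes, the count called over all arrays was 3 and became 0 with chip as a fixed block, 0 with chip as a random block, 0 with the 3′ minus 5′ measure as a covariate and 6 at an adjusted p below 0.10. On chip 3 the count was 1 and became 0 under median scaling, 0 under normexp background and 0 with the measure as a covariate, 2 at an adjusted p below 0.10, and between 0 and 1 when each array was left out in turn. Under the first 3 the difference of Chordc1 was 0.34, 0.40 and 0.37 (adjusted p 0.0197, 0.023 and 0.0104), beside 0.38. Among all tested probes the chip 3 counts were 321, and then 256, 21, 357 and 1639, with 96 to 374 over the left-out arrays. Between chips 1 and 2 and chip 4 the member count was 4, and 2 at odd positions only or with the measure as a covariate, where the 2 were Dnajb1 and Chordc1 (-0.34, adjusted p 0.00417). The counts among all probes were 1192, 316 and 639. For odd against even positions the member count was 1, and 0 under median scaling, in chip 4 alone, in chips 1 and 2 alone, without control mouse C66 and with the measure. Those among all probes were 313, and then 0, 0, 15, 258 and 52. For the controls of chips 3 and 4 the member count was 1, 0 under median scaling and 0 to 2 when each array was left out, beside 90, 0 and 22 to 181 of all probes. For the difference between differences the member count was 3, and for the fit with chip and position 1, each 0 under median scaling. Among all probes these went from 323 to 125 and from 2 to 0. The settings with the measure and without C66 were chosen after seeing the data.

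Signs turned, under the alternatives run, for probes that were not called. Over all arrays these were Dnajb1 (0.21) and Hsp90aa1 (0.0934) with chip as a fixed block and Hsp90aa1 (0.0116) under median scaling. On chip 3 they were Hsp90aa1 (-0.0411) with the measure, and the Hsp90ab1 probe at 1283 at -0.0142 under median scaling and from -0.0283 to 0.0596 over the left-out arrays. Between chips they were Hsph1 at odd positions (-0.18) and without C66 (-0.0543), Stip1 with the measure (-0.0289), and Hsp90aa1 (0.022) and Chordc1 (0.0489) under median scaling. Between positions they were Hsph1 (0.0601) and the Hsp90ab1 probe at 2262 (0.0264) under median scaling, the same probes in chip 4 alone (0.23 and 0.004), and the probe at 1289 with the measure (0.0039). Between the controls they were Stip1 (0.15) and the probe at 2262 (0.12) under median scaling, and over the left-out arrays Hsph1 ran from -0.0722 to 0.1272, Stip1 from -0.0936 to 0.0351 and Hsp90aa1 from -0.0697 to 0.11. For the difference between differences they were Stip1 with position as a covariate (0.10) and the probe at 2262 under median scaling (-0.0517), and in the fit with chip and position the probe at 2262 under median scaling (-0.10). No paired analysis was possible because the mouse numbers are not shared between the groups. The cause of these changes was not tested.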
